A study of Mus musculus with 16 samples.

Results

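The 35 genes described here make, move and sense cholesterol in the mouse hippocampus. They were taken by symbol from the deposited count table of 55385 genes. All 35 were found and all 35 had enough reads to be tested. They comprised 18 enzymes of cholesterol synthesis and 17 genes of sterol transport and sensing. RNA with poly(A) tails was sequenced from hippocampus of 5-month-old mice of 4 genotypes with 4 libraries each. The wild-type group was C57BL/6J (2 male and 2 female samples). Dp16 mice (2 male, 2 female) carry a duplicated stretch of mouse chromosome 16 and serve as a model of Down syndrome. 5xFAD mice (2 male, 2 female) carry human transgenes with mutations of familial Alzheimer disease, driven in neurons by the Thy1 promoter, and deposit amyloid. The fourth group, 5xFAD-Dp16, carries both alterations and held 4 male samples and no female. The labels do not state that each library is a separate mouse, so p-values measure the spread between libraries, which may be technical in part. Below, amyloid carriers are the 8 libraries with the 5xFAD transgenes and duplication carriers the 8 with the Dp16 segment. Of the 35 genes, 0 lie on mouse chromosome 16, which holds the duplicated segment.

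Brain cholesterol is made locally, since plasma lipoproteins do not cross the blood-brain barrier, and most of it sits in myelin. Synthesis runs from acetyl-CoA through mevalonate and squalene to sterols, and its enzymes are switched on together by the SREBP transcription factors when membranes are short of sterol. Surplus cholesterol is handed by astrocytes and microglia to lipoproteins that carry apolipoprotein E, a step controlled by the liver X receptors (LXR), and neurons export it as a hydroxylated sterol.

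Total counts were 15.8 to 25.0 M per library. The genotype labels were checked on genes outside the 35: mouse App, which lies in the duplicated segment, averaged 2033 ± 236 CPM (counts scaled to library size) in wild-type and 3139 ± 95.8 in Dp16, and Thy1 averaged 814 ± 70.2 in wild-type and 2133 ± 363 in 5xFAD (SD, n = 4). The labelled tissue was checked on 9 markers of hippocampal neurons, which summed to 568 to 1369 CPM and were detected in each genotype. 4 libraries stood apart by genes of midbrain or thalamus: wild-type replicate 4, 5xFAD replicates 2 and 4, and 5xFAD-Dp16 replicate 3. Their 10 thalamus markers summed to 299.9 to 597 CPM, against 133 to 239 in the other 12. They were lower in hippocampal neuron markers (568 to 716 CPM against 902 to 1369) and higher in 12 oligodendrocyte markers (6627 to 9396 CPM against 4488 to 6232). Results are therefore given with and without them. The other 12 libraries also differed in content: 10 choroid plexus markers summed to 71.0 to 6635 CPM among them, and to 45.4 to 2790 in the 4. The part of choroid plexus content in the results was not tested. In bulk tissue, more cells of a type and more RNA per cell cannot be told apart.

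Levels of different genes were compared as RPKM, reads scaled for gene length and library total. In wild-type hippocampus Apoe, the main apolipoprotein of the brain, stood highest at 1511 ± 268 RPKM. The next were Cyp46a1, the neuronal enzyme that hydroxylates cholesterol for export, at 75.6 ± 5.23, and Hmgcs1, the synthase of the second step of the mevalonate pathway, at 66.4 ± 6.77 (SD, n = 4). The RPKM ranges of Cyp46a1 (70.6 to 81.5) and Hmgcs1 (61.9 to 76.5) overlapped, whereas the lowest Apoe library was at 1302. At the other end were Abca1, a lipid exporter, at 3.39 ± 0.439 RPKM, the liver X receptor gene Nr1h3 at 1.65 ± 0.439 and Ch25h, an enzyme that hydroxylates cholesterol in activated macrophages, at 0.350 ± 0.326. The ranges of Abca1 (2.92 to 3.90), Nr1h3 (1.18 to 2.22) and Ch25h (0.0613 to 0.815) did not overlap.

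In amyloid carriers 5 of the 35 genes rose and 0 fell (Benjamini-Hochberg adjusted p below 0.05 over 16684 genes, edgeR quasi-likelihood test, 2-sided, 8 against 8 libraries with sex in the model). They were Ch25h and Apoe among transport and sensing genes and Fdps, Fdft1 and Nsdhl among synthesis enzymes. Ch25h rose 3.313-fold and the other 4 between 1.223- and 1.253-fold. Among all genes tested 427 passed, which is 2.56%, and 407 of them were higher in carriers, which is 2.44%. The members' share was 14.3%. That number depended on the libraries, and leaving out 1 at a time gave 1 to 8 members. It was 1 without wild-type replicate 3, Dp16 replicate 2 or 5xFAD-Dp16 replicate 4, and 8 without wild-type replicate 4. The change was over 1.5 times in 13 of 16 fits, and males alone gave 1, Ch25h. Of the synthesis enzymes, 17 of 18 had a positive estimate, with a median log2 difference of 0.23 against 0.025 over all genes tested, of which 54.8% were positive. Of the transport and sensing genes, 13 of 17 were positive, with a median of 0.092. The duplication gave no such call: 0 of 35 members passed, against 39 of all genes (0.234%).

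**Figure D1:**
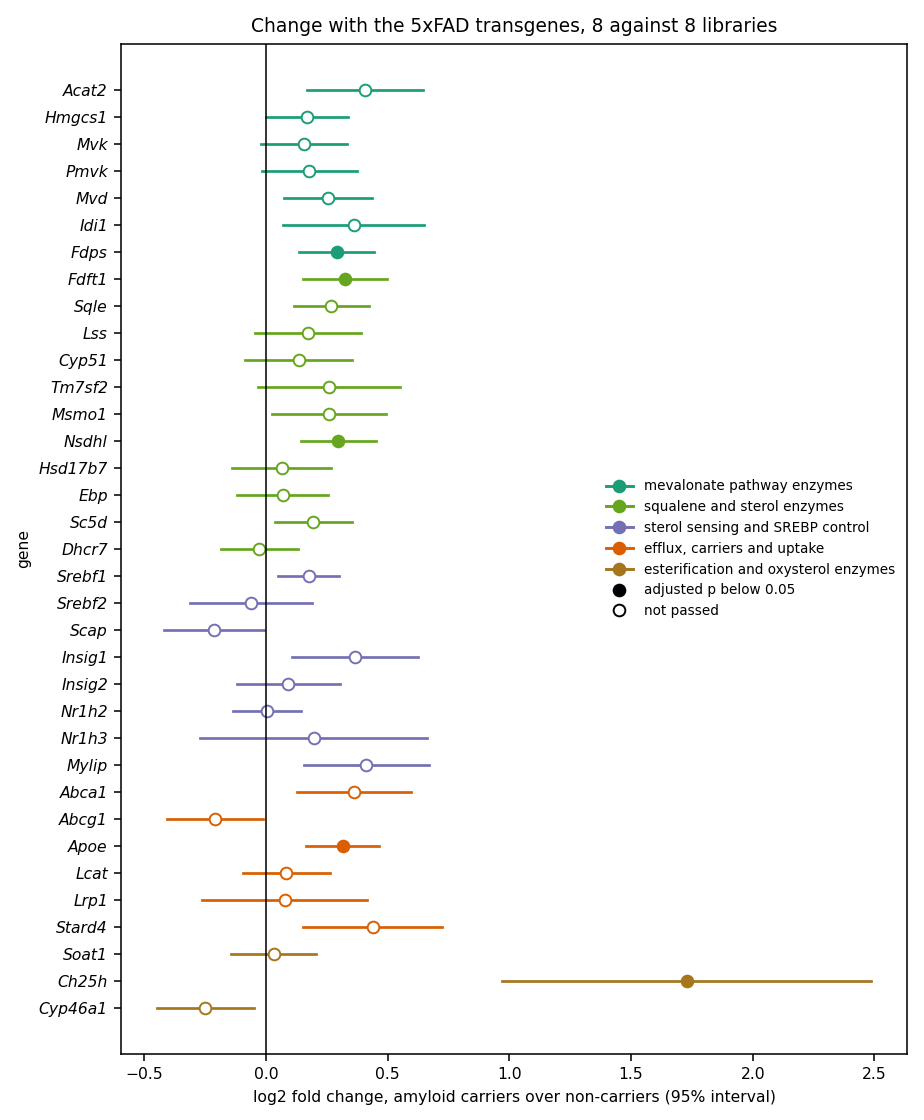
Change of each of the 35 genes with the 5xFAD transgenes, as the log2 fold change of 8 carriers over 8 non-carriers (horizontal axis) with its 95% interval, in order of role. Filled points passed at an adjusted p below 0.05; 17 of 18 synthesis enzymes lie right of 0, and Ch25h lies apart at 1.73.

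The synthesis enzymes were examined first, with the promoter letters that bear on their shared control. SREBP proteins bind sterol regulatory elements and act beside the factor NF-Y, which binds the letters CCAAT. Reference windows of 300 bases (250 before to 50 after an annotated start; RefSeq, GRCm38.p6) were found for 30 of the 35 genes, in 41 windows; Fdps, Fdft1, Sqle, Abcg1 and Stard4 had none. Both strands were searched. The element TCACNCCAC was in 1.24% of 32851 windows of all genes and in 1 of the 18 windows found for synthesis enzymes, that of Hmgcs1, where it lay 137 bases before the start. CCAAT was in 37.4% of all windows, in 14 of 18 windows (77.8%) of synthesis enzymes and in 9 of 23 (39.1%) of transport and sensing genes. The E-box CACGTG, a further class of site that SREBP can bind, was in 7.15% of all windows, in 3 of 18 and in 4 of 23. The liver X receptor repeat (AGGTCA, any 4 bases, AGGTCA) was in 0.0152% of all windows and in 0 of 41 of the members. A match is a run of letters, not proof of binding, and its absence says only that the window lacks these letters. The windows of 3 genes are shown, each 5′ to 3′ on the gene's strand, with the sterol element and CCAAT (or its reverse complement ATTGG) in capitals: Hmgcs1 as the gene with the sterol element, Nsdhl as an enzyme that rose and has CCAAT letters only, and Ch25h as the gene with the largest change, whose window holds neither. No capital runs of different motifs overlap.
Hmgcs1, GRCm38.p6 chr13:119690101-119690400, plus strand: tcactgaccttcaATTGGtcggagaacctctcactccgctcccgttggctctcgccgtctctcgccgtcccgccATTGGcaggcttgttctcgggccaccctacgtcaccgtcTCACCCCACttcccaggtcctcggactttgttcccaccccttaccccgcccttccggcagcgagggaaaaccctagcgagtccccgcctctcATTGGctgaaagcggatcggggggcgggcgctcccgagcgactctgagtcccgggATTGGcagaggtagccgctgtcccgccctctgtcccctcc
Nsdhl, GRCm38.p6 chrX:72918271-72918570, plus strand: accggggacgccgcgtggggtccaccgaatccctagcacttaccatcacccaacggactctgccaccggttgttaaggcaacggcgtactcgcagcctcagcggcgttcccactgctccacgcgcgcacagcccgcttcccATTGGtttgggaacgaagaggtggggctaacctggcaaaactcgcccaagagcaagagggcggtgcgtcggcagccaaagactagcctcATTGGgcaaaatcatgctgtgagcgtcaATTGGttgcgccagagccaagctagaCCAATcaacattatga
Ch25h, GRCm38.p6 chr19:34475099-34475398, minus strand: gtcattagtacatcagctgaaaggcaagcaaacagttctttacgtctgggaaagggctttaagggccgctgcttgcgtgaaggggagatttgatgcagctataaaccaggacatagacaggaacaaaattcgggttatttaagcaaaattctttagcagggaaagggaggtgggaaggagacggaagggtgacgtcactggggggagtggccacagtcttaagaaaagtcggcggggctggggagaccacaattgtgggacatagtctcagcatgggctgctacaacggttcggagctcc

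The mevalonate pathway was represented by 7 enzymes, all 7 with a positive estimate in amyloid carriers and 1, Fdps, past the test. Values of 4 libraries are given in the order of their replicate numbers, which carry no ranking. Fdps (chromosome 3, 89093588 to 89101959, GRCm38) encodes farnesyl diphosphate synthase, the branch point toward squalene and protein prenylation. It stood at 20.98, 18.6, 19.9 and 20.9 CPM in the wild-type libraries, 18.7, 21.2, 20.96 and 22.1 in those of Dp16, 23.4, 29.2, 24.5 and 22.2 in those of 5xFAD and 24.05, 24.5, 26.5 and 24.5 in those of 5xFAD-Dp16. The lowest carrier, at 22.2, lay just above the highest non-carrier, at 22.1, so the groups did not overlap, as for 160 of all genes tested in this direction (0.959%). The log2 difference was 0.29 ± 0.072 (SE), adjusted p = 0.0418. Leaving out 1 library at a time, the call was kept only without wild-type replicate 4, Dp16 replicate 4 or 5xFAD replicate 1 or 4, and the adjusted p reached 0.1101 with the others left out. Acat2, the cytosolic thiolase that opens the pathway, was at 27.7, 22.7, 24.1 and 32.2 CPM in the wild-type libraries, 25.3, 26.7, 25.2 and 26.9 in those of Dp16, 26.3, 40.1, 31.5 and 36.8 in those of 5xFAD and 29.1, 34.7, 45.1 and 34.7 in those of 5xFAD-Dp16. Its highest values in 3 of the 4 genotypes were in libraries with midbrain or thalamus genes, and the fourth, Dp16, held no such library. The ranges overlapped, and the difference of 0.41 ± 0.11 missed the threshold (adjusted p = 0.0747).

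Hmgcs1, which joins acetyl-CoA to acetoacetyl-CoA, was at 234, 211, 232 and 245 CPM in the wild-type libraries, 225, 309, 323 and 283 in those of Dp16, 269, 300.4, 294 and 262 in those of 5xFAD and 282, 343, 305 and 291 in those of 5xFAD-Dp16. Its wild-type libraries were low as a group in CPM: 4 of 4 5xFAD and 4 of 4 5xFAD-Dp16 libraries lay above them, and 3 of 4 Dp16 libraries did. In RPKM, 5xFAD replicate 1, at 76.3, lay just below wild-type replicate 4, at 76.5. Against wild-type the log2 estimate was 0.29 ± 0.11 in 5xFAD (adjusted p = 0.414) and 0.30 ± 0.11 in Dp16 (adjusted p = 0.990). Pmvk, the second kinase of the pathway, was at 33.1, 32.1, 28.8 and 38.4 CPM in the wild-type libraries, 29.4, 34.2, 31.9 and 31.6 in those of Dp16, 36.99, 39.6, 34.7 and 47.6 in those of 5xFAD and 31.8, 30.6, 41.3 and 32.5 in those of 5xFAD-Dp16. It overlapped in every comparison, with an amyloid estimate of 0.18 ± 0.092 (adjusted p = 0.353). The remaining 3 enzymes did not pass. They were the kinase Mvk, at 17.99 ± 1.80 CPM over the wild-type libraries, 18.8 ± 2.83 over those of Dp16, 20.5 ± 0.711 over those of 5xFAD and 21.1 ± 1.75 over those of 5xFAD-Dp16 (SD, n = 4), the decarboxylase Mvd and the isomerase Idi1. Mvd averaged 17.1 ± 1.63 CPM over the wild-type libraries, 19.6 ± 4.88 over those of Dp16, 21.4 ± 1.72 over those of 5xFAD and 24.4 ± 1.10 over those of 5xFAD-Dp16 (SD, n = 4), and all 4 libraries of each amyloid genotype lay above all 4 of wild-type. Idi1 averaged 13.5 ± 3.14 CPM over the wild-type libraries, 13.999 ± 1.78 over those of Dp16, 17.6 ± 3.48 over those of 5xFAD and 17.3 ± 2.90 over those of 5xFAD-Dp16 (SD, n = 4). Their amyloid estimates were 0.16, 0.25 and 0.36 log2 units, with adjusted p of 0.367, 0.164 and 0.225.

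From squalene onward 11 enzymes were measured, of which 2 rose in amyloid carriers, 9 did not pass and 10 had a positive estimate. Fdft1 (chromosome 14, 63145150 to 63179578) encodes squalene synthase, the first step committed to sterols. It was at 96.9, 91.9, 92.1 and 103 CPM in the wild-type libraries, 89.9, 127, 106 and 108 in those of Dp16, 100.4, 136, 129 and 133 in those of 5xFAD and 135, 149, 131 and 127 in those of 5xFAD-Dp16. 5xFAD replicate 1 lay within the range of wild-type. The other 7 carriers were at 127 to 149, just above Dp16 replicate 2, the highest non-carrier. The log2 difference was 0.33 ± 0.081, adjusted p = 0.0430. That call was kept in 4 of 16 fits that left out 1 library, those without wild-type replicate 4, Dp16 replicate 2 or 5xFAD replicate 1 or 4, and elsewhere the adjusted p reached 0.138. Nsdhl (chromosome X, 72918557 to 72958514) encodes the dehydrogenase that removes methyl groups from lanosterol derivatives. It was at 22.2, 22.04, 20.7 and 25.9 CPM in the wild-type libraries, 21.4, 22.05, 25.4 and 25.2 in those of Dp16, 25.2, 30.9, 26.9 and 29.04 in those of 5xFAD and 28.8, 28.1, 27.2 and 29.1 in those of 5xFAD-Dp16. Only the lowest 5xFAD library lay among the higher non-carriers, and the difference was 0.30 ± 0.072 (adjusted p = 0.0355). It was kept in 7 of these 16 fits, those without wild-type replicate 4, Dp16 replicate 3 or 4, 5xFAD replicate 1, 3 or 4 or 5xFAD-Dp16 replicate 3, and the adjusted p reached 0.116 in the rest.

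Sqle, the squalene epoxidase that is a control point of the pathway, was at 57.01, 57.2, 64.1 and 63.6 CPM in the wild-type libraries, 57.4, 71.1, 64.7 and 67.8 in those of Dp16, 74.6, 70.1, 79.1 and 61.4 in those of 5xFAD and 84.5, 88.6, 76.4 and 74.7 in those of 5xFAD-Dp16. The 4 libraries of 5xFAD-Dp16 were above all libraries of wild-type and Dp16. Among all genes, 3.08% were higher without overlap against wild-type and 3.71% against Dp16, and the share for both at once was not computed. The amyloid difference of 0.27 ± 0.073 missed the threshold with all libraries (adjusted p = 0.0680) and passed without the 4 libraries high in midbrain or thalamus genes (0.35, adjusted p = 0.00783). Ebp, the sterol isomerase, stood out by its duplication estimate. It was at 16.2, 16.3, 18.1 and 16.3 CPM in the wild-type libraries, 12.1, 13.3, 13.7 and 14.8 in those of Dp16, 15.97, 17.8, 15.3 and 18.3 in those of 5xFAD and 14.99, 14.5, 17.7 and 12.04 in those of 5xFAD-Dp16, and every Dp16 library was below every wild-type library. That holds for 1 of 35 members and for 1.55% of all genes tested; the log2 estimate for duplication carriers was -0.25 ± 0.088 with an adjusted p of 0.856.

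The other 7 sterol enzymes overlapped between carriers and non-carriers and did not pass. Lss, which closes squalene epoxide into lanosterol, had an amyloid estimate of 0.17, and the lanosterol demethylase gene Cyp51 one of 0.13. Msmo1, the methylsterol oxidase, was at 0.26, the sterol reductase gene Tm7sf2 at 0.26 and the desaturase gene Sc5d at 0.20. The reductase genes Hsd17b7 and Dhcr7 lay nearest to 0, at 0.066 and -0.027. Dhcr7, which reduces the last double bond on 1 route to cholesterol, was the 1 synthesis enzyme with a negative estimate, with an interval of -0.19 to 0.13. The adjusted p of these 7 ranged from 0.230 for Sc5d up to 0.871 for Dhcr7.

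**Figure D2:**
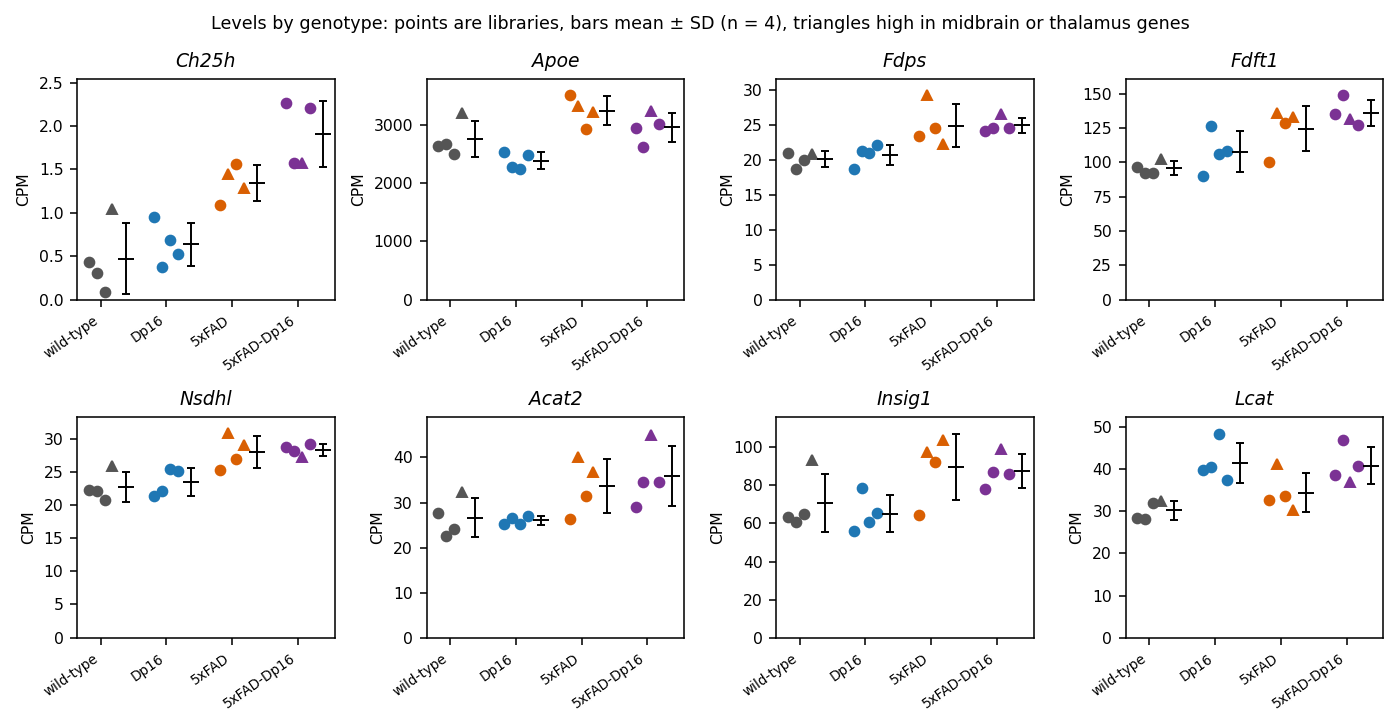
Expression of 8 of the genes in CPM (vertical axes from 0) by genotype; points are libraries, bars the mean ± SD of 4, and triangles the 4 libraries high in midbrain or thalamus genes. In CPM, Ch25h and Fdps separate all 8 amyloid carriers from all 8 non-carriers, and Apoe, Fdft1, Nsdhl, Acat2 and Insig1 overlap. In RPKM, Fdps still separates them and Ch25h overlaps. Lcat separates wild-type from both genotypes with the duplication.

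Among the 8 genes of sterol sensing, 0 passed in any comparison in the edgeR model of all libraries with the default filter and sex alone as covariate. In amyloid carriers 6 had a positive and 2 a negative estimate, and 4 had an unadjusted p below 0.05, as 15.7% of all genes had. Mylip encodes a ubiquitin ligase, induced by LXR, that removes lipoprotein receptors. It was at 27.2, 18.7, 20.9 and 20.2 CPM in the wild-type libraries, 20.3, 17.6, 19.6 and 20.96 in those of Dp16, 34.8, 25.3, 30.2 and 19.1 in those of 5xFAD and 30.8, 29.4, 24.1 and 25.1 in those of 5xFAD-Dp16. Its 5xFAD-Dp16 libraries lay above all Dp16 libraries, while 5xFAD replicate 4 fell among the non-carriers. The difference was 0.41 ± 0.12, with an adjusted p of 0.0965 in all libraries; the 12 left after removing those high in midbrain or thalamus genes gave 0.55 with an adjusted p of 0.00432. Insig1, a target of SREBP that holds SREBP back when sterol is ample, was at 63.5, 60.8, 64.8 and 93.4 CPM in the wild-type libraries, 56.3, 78.4, 60.8 and 65.3 in those of Dp16, 64.7, 97.8, 92.2 and 104 in those of 5xFAD and 78.3, 86.8, 99.4 and 85.8 in those of 5xFAD-Dp16. The highest wild-type value was that of replicate 4, 1 of those 4 libraries, and the groups overlapped (difference 0.37 ± 0.12, adjusted p = 0.163).

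Srebf1, which encodes the SREBP that favours fatty acid genes, was at 73.9, 73.4, 65.1 and 75.7 CPM in the wild-type libraries, 65.8, 57.5, 54.6 and 57.5 in those of Dp16, 72.8, 76.03, 71.8 and 61.4 in those of 5xFAD and 72.99, 77.5, 69.5 and 72.8 in those of 5xFAD-Dp16. 3 of its 4 Dp16 libraries lay below every wild-type library, and all 4 lay below those of 5xFAD-Dp16. The estimate for 5xFAD-Dp16 over Dp16 was 0.38 ± 0.086 with an adjusted p of 0.0512, and it passed without the 4 libraries named above (0.40, adjusted p = 0.0303) and with DESeq2 (0.37, adjusted p = 0.0102). Against wild-type, Dp16 was at -0.29 ± 0.080 (adjusted p = 0.719). The difference between the amyloid effects with and without the duplication was 0.42 ± 0.12, adjusted p = 1.000. Srebf2, whose product drives the synthesis enzymes, was at 295, 244, 269 and 193 CPM in the wild-type libraries, 275, 274, 292 and 245 in those of Dp16, 264, 233, 254 and 179 in those of 5xFAD and 308, 336, 204 and 253 in those of 5xFAD-Dp16. It overlapped in every comparison, and its amyloid estimate was -0.061 ± 0.12 (adjusted p = 0.815) with an interval of -0.31 to 0.19. Scap, the escort of SREBP, had a negative estimate of -0.21 ± 0.096 (adjusted p = 0.299). Insig2 was at 0.092, and the LXR genes Nr1h2 and Nr1h3 at 0.0058 and 0.20, with adjusted p of 0.649, 0.970 and 0.658.

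Of 6 genes of efflux, carriage and uptake, Apoe rose in amyloid carriers and 5 did not pass. Apoe (chromosome 7, 19696109 to 19699188) was at 2645, 2672, 2508 and 3209 CPM in the wild-type libraries, 2527, 2273, 2249 and 2489 in those of Dp16, 3514, 3331, 2922 and 3222 in those of 5xFAD and 2942, 2628, 3246 and 3014 in those of 5xFAD-Dp16. The 4 Dp16 libraries, at 2249 to 2527 CPM, lay below all 8 carriers, a comparison for which no share over all genes was computed. In RPKM they overlapped, with Dp16 replicate 4 at 1381 and 5xFAD-Dp16 replicate 2 at 1338. Wild-type replicate 4 was as high as several of the carriers. The log2 difference was 0.32 ± 0.070 and the adjusted p 0.0217. In the 12 libraries low in midbrain and thalamus genes it was 0.32, adjusted p = 0.0132. The call was lost when wild-type replicate 3, Dp16 replicate 2 or 3 or 5xFAD-Dp16 replicate 4 was left out, with an adjusted p of up to 0.0729, without the sex term (0.27, adjusted p = 0.0798), in males alone (0.31, adjusted p = 0.129) and with oligodendrocyte and hippocampal neuron scores in the model (0.27, adjusted p = 0.117). Within each background, Apoe was at 0.24 ± 0.095 in 5xFAD over wild-type (adjusted p = 0.469) and at 0.40 ± 0.10 in 5xFAD-Dp16 over Dp16 (adjusted p = 0.118).

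Abca1, which loads cholesterol onto apolipoprotein E, was at 31.7, 39.2, 38.6 and 29.8 CPM in the wild-type libraries, 44.5, 26.8, 30.5 and 30.2 in those of Dp16, 49.8, 56.7, 43.03 and 34.5 in those of 5xFAD and 40.6, 37.6, 31.7 and 41.3 in those of 5xFAD-Dp16. Its 5xFAD libraries spread widely and overlapped the others. The amyloid difference of 0.36 ± 0.11 had an adjusted p of 0.120, and without the 4 libraries it was 0.37 with an adjusted p of 0.0405. Abcg1, a partner in efflux, had a negative estimate of -0.21 ± 0.092 (adjusted p = 0.293). The sterol carrier gene Stard4 averaged 22.2 ± 4.98 CPM over the wild-type libraries, 24.9 ± 5.08 over those of Dp16, 29.8 ± 6.91 over those of 5xFAD and 33.8 ± 2.32 over those of 5xFAD-Dp16 (SD, n = 4). All 4 of its 5xFAD-Dp16 libraries lay above all 8 without the transgenes, the lowest at 31.57 CPM against 31.51 in the highest Dp16 library. Among all genes, 3.08% were higher without overlap against wild-type and 3.71% against Dp16. The share for both at once was not computed. The amyloid difference was 0.44 ± 0.13 (adjusted p = 0.122). For Lrp1, a receptor that takes up apolipoprotein E, the estimate was 0.077 ± 0.16 (adjusted p = 0.825).

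Lcat, which esterifies cholesterol on lipoproteins, had the smallest duplication p of the 35. It was at 28.3, 28.3, 32.1 and 32.4 CPM in the wild-type libraries, 39.7, 40.5, 48.4 and 37.4 in those of Dp16, 32.8, 41.2, 33.6 and 30.3 in those of 5xFAD and 38.6, 47.1, 37.03 and 40.8 in those of 5xFAD-Dp16. All 4 Dp16 libraries lay above all 4 of wild-type, as for 1.37% of all genes, and so did all 4 of 5xFAD-Dp16, while 5xFAD overlapped both. The duplication estimate was 0.35 ± 0.086 log2 units, 1.277-fold, with an unadjusted p of 0.000901 and an adjusted p of 0.251. It passed with DESeq2 (0.36, adjusted p = 0.0434), when 3 libraries with midbrain genes were left out (0.43, adjusted p = 0.0281) and when the library with thalamus genes was left out too (0.39, adjusted p = 0.0316). In Dp16 over wild-type the estimate was 0.46 ± 0.12 (adjusted p = 0.481), and in 5xFAD-Dp16 over 5xFAD 0.25 ± 0.13 (adjusted p = 1.000).

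The last group holds 3 enzymes that store or oxidise cholesterol. Ch25h (chromosome 19, 34473778 to 34475164) makes an oxysterol that dampens SREBP processing and is induced in macrophages by inflammatory signals. It was at 0.438, 0.306, 0.0891 and 1.04 CPM in the wild-type libraries, 0.955, 0.377, 0.682 and 0.529 in those of Dp16, 1.09, 1.45, 1.56 and 1.28 in those of 5xFAD and 2.26, 1.58, 1.57 and 2.21 in those of 5xFAD-Dp16. In CPM, every library with the transgenes lay above every library without them. All 4 of 5xFAD-Dp16 lay above all 4 of 5xFAD, as for 1.33% of all genes. In RPKM both comparisons overlapped. Wild-type replicate 4 was at 0.815 RPKM against 0.774 in 5xFAD replicate 1. 5xFAD replicate 3 was at 1.15 against 1.07 in 5xFAD-Dp16 replicate 2. The Ch25h values rest on few reads: 2 to 23 per library in wild-type, 8 to 17 in Dp16, 17 to 28 in 5xFAD and 31 to 42 in 5xFAD-Dp16. The amyloid difference was 1.73 ± 0.36 log2 units, 3.313-fold, with an adjusted p of 0.0131. It was 2.00 with an adjusted p of 0.00531 without the 4 libraries high in midbrain or thalamus genes, and 2.13 with 0.0363 in males alone. Of the fits that left out 1 library, the 1 without Dp16 replicate 2 lost the call (1.63, adjusted p = 0.0519). The excess of 5xFAD-Dp16 over 5xFAD was 0.71 ± 0.47 with an interval of -0.28 to 1.70 and an adjusted p of 1.000.

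Cyp46a1 was at 183, 149, 157 and 153 CPM in the wild-type libraries, 133, 168, 157 and 175 in those of Dp16, 150.1, 120.0, 146 and 117 in those of 5xFAD and 144, 153, 108 and 146 in those of 5xFAD-Dp16. The estimate for carriers was negative, -0.25 ± 0.093, with an adjusted p of 0.224, and the lowest values in both amyloid genotypes were in libraries high in midbrain or thalamus genes. Soat1, which esterifies cholesterol for storage, was at 33.9, 37.3, 42.3 and 35.3 CPM in the wild-type libraries, 46.7, 34.01, 38.7 and 35.1 in those of Dp16, 41.98, 40.9, 38.4 and 33.97 in those of 5xFAD and 39.4, 40.2, 32.9 and 37.3 in those of 5xFAD-Dp16. It overlapped throughout, with an amyloid estimate of 0.032 ± 0.082 and an interval of -0.14 to 0.21.

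**Figure D3:**
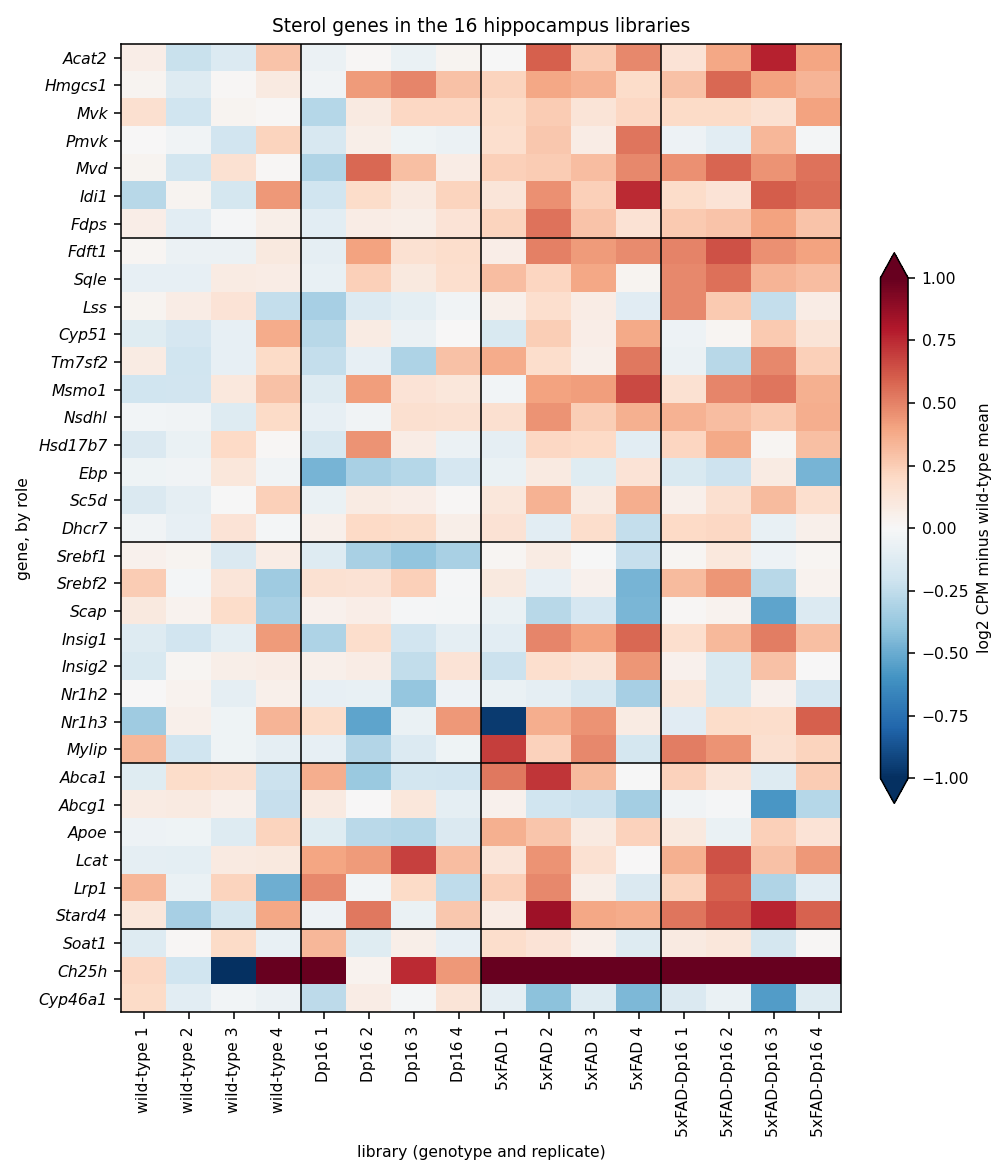
Log2 CPM of each of the 35 genes in each of the 16 libraries, minus the mean of the 4 wild-type libraries; colour runs from -1 to 1 and rows follow the role groups. The synthesis enzymes are mostly above the wild-type mean in the 8 libraries at the right, and Ch25h is beyond the scale in all 8. Ch25h is also beyond it in wild-type replicate 3 (-1.30), wild-type replicate 4 (1.29) and Dp16 replicate 1 (1.18).

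The amyloid effect was then followed in each background. 5xFAD over wild-type and 5xFAD-Dp16 over Dp16 share no libraries. In the first, 0 of 35 members passed with edgeR or with DESeq2, against 162 of all genes (0.971%), and 15 had an unadjusted p below 0.05 (all genes 8.85%), each with a positive estimate. In CPM, all 4 libraries of 5xFAD lay above all 4 of wild-type for 4 members (all genes 3.18%): Hmgcs1, Mvd, Fdps and Ch25h. In RPKM, Hmgcs1 and Ch25h overlapped. In the second, 0 of 35 passed with edgeR, against 141 of all genes (0.845%), and 11 had an unadjusted p below 0.05 (all genes 8.57%). DESeq2 called 3 there, Apoe, Ch25h and Srebf1. The synthesis enzymes had a median log2 estimate of 0.28 in the first, with 18 of 18 positive, and of 0.18 in the second, with 17 of 18 positive. Over all genes the medians were both 0.020. Taken gene by gene, 17 of 18 synthesis enzymes were positive in both and Dhcr7 was near 0 in each (0.0026 and -0.057).

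Among transport and sensing genes 10 were positive in both, 4 negative in both (Abcg1, Cyp46a1, Scap and Srebf2) and 3 opposite (Lcat, Nr1h2 and Srebf1). Nr1h2 was at -0.16 over wild-type and 0.17 over Dp16. The difference of the 2 effects was tested as an interaction. It passed for 0 of 35 members and for 0 of all genes with edgeR, and DESeq2 called 0 members. Unadjusted p was below 0.05 for 2 members, Srebf1 and Nr1h2 (0.33 ± 0.13, unadjusted p = 0.0227), and for 332 of all genes (1.99%). For Hmgcs1, whose estimates were 0.29 and 0.051, the difference was -0.24 ± 0.16 with an interval of -0.57 to 0.10.

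**Figure D4:**
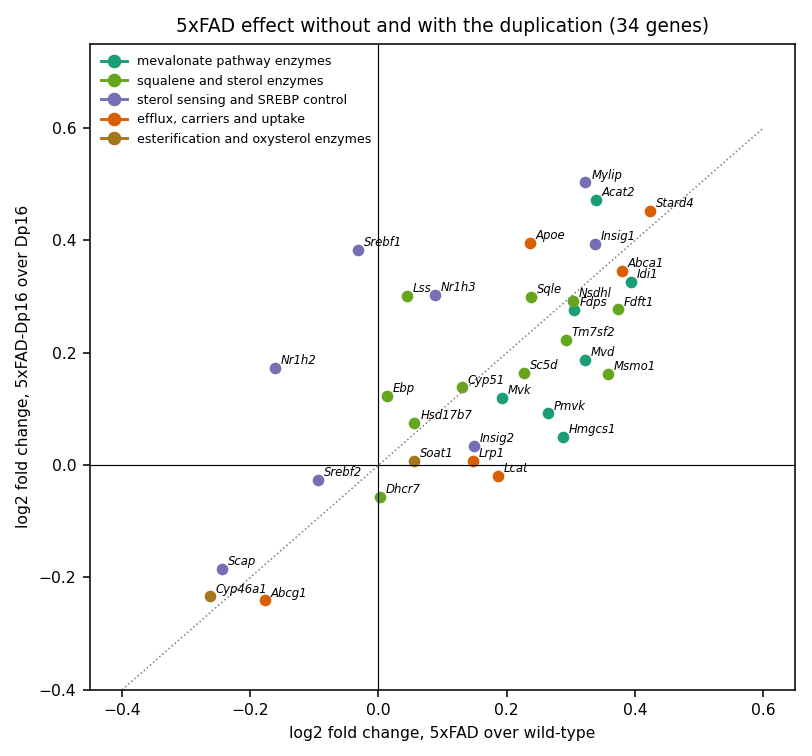
Each point is 1 of 34 genes, by its log2 fold change in 5xFAD over wild-type (horizontal) and in 5xFAD-Dp16 over Dp16 (vertical), coloured by role; the dotted line marks equal effects. Ch25h lies outside the axes at 1.60 and 1.85; 17 synthesis enzymes are in the upper right quadrant.

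Mice with both alterations were compared with wild-type, Dp16 and 5xFAD. As 5xFAD-Dp16 had males only, its values were adjusted with the sex effect estimated in the other 3 groups. Against wild-type 1 of 35 members passed, Ch25h, at 2.32 ± 0.53 log2 units (adjusted p = 0.0487), while 169 of all genes passed (1.01%). That call was kept without wild-type replicate 4 or 5xFAD replicate 1 and lost in the other 14 fits that left out 1 library, with an adjusted p of up to 0.184. It was also lost without the sex term, in males alone and with the replicate block. The groups did not overlap in CPM, with 5xFAD-Dp16 higher, for 9 members against 3.08% of all genes: Hmgcs1, Mvd, Fdps, Fdft1, Sqle, Nsdhl, Lcat, Stard4 and Ch25h. In RPKM, Nsdhl overlapped. Sqle was at 0.41 ± 0.11 (adjusted p = 0.118) and Fdft1 at 0.44 ± 0.12 (adjusted p = 0.135). Leaving out the 4 libraries high in midbrain or thalamus genes, 5 members passed, Ch25h, Fdft1, Lcat, Sqle and Stard4. The median over synthesis enzymes was 0.23, and 17 of 18 were positive. Against Dp16, 10 members did not overlap in CPM (all genes 3.71%), all higher in 5xFAD-Dp16. Apoe, 1 of them, overlapped in RPKM. Against 5xFAD, 0 of 35 members passed with edgeR or DESeq2 and 0 had an unadjusted p below 0.05 (all genes 3.28%), against 9 of all genes passing (0.0539%). The synthesis median there was 0.027, with 10 of 18 positive.

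In Dp16 over wild-type, the log2 estimates of the 35 members ran from -0.31 to 0.46, with a median of 0.026. With edgeR 0 of 35 passed, and with DESeq2 0, against 14 of all genes (0.0839%). An unadjusted p below 0.05 was reached by 5 members (all genes 3.31%): Lcat and Hmgcs1 with positive estimates, and Srebf1, Ebp and Apoe with negative ones. Apoe was at -0.21 ± 0.095 (adjusted p = 0.990). Without the 4 libraries Lcat passed (0.51, adjusted p = 0.0340). Over all duplication carriers 3 members had an unadjusted p below 0.05 (all genes 4.6%), Lcat, Ebp and Hmgcs1, and the synthesis median was 0.029 with 12 of 18 positive. DESeq2 called Lcat alone.

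Other genes of sterol metabolism were read from lists apart from the 35. In amyloid carriers, 2 of 11 genes of lysosomal and intracellular sterol transport rose. Npc2, which lifts cholesterol from lysosomal lipid, was at 51.99, 75.4, 58.7 and 78.7 CPM in the wild-type libraries, 62.6, 57.7, 52.3 and 73.01 in those of Dp16, 108, 103, 95.1 and 118 in those of 5xFAD and 96.1, 81.7, 104 and 94.5 in those of 5xFAD-Dp16. In CPM, all carriers lay above all non-carriers, and the difference was 0.73 ± 0.086 (adjusted p = 8.57e-05). The closest pair was 5xFAD-Dp16 replicate 2 at 81.7 and wild-type replicate 4 at 78.7. Their scaling factors (TMM) were 0.937 and 1.087, so the order of this pair depends on the scaling. Tspo, an outer mitochondrial protein used as a marker of glial activation, was at 2.43, 5.76, 4.36 and 5.30 CPM in the wild-type libraries, 4.61, 2.78, 2.67 and 7.45 in those of Dp16, 6.96, 6.80, 6.82 and 8.23 in those of 5xFAD and 6.68, 4.48, 6.89 and 6.52 in those of 5xFAD-Dp16. Its groups overlapped, and the difference was 0.80 ± 0.20 (adjusted p = 0.0463). Of 16 other genes of synthesis and SREBP control, 0 passed with edgeR and 9 were positive. Of 15 other genes of lipoproteins, uptake and efflux 0 passed. Of 5 tested genes of other oxysterol and bile acid enzymes 0 passed, with Cyp39a1 at 0.84 ± 0.29 (adjusted p = 0.187). Of 13 lipogenic targets of SREBP and LXR 0 passed, with Acly, the citrate lyase that supplies acetyl-CoA, at 0.14 ± 0.074 (adjusted p = 0.360). No gene of these lists passed for the duplication.

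Markers of cell types moved with the transgenes as well. Of 12 microglial markers 10 rose in amyloid carriers, and their sum was 886 to 1533 CPM in carriers against 508 to 584 in non-carriers. Of 10 genes of plaque-associated microglia 7 rose (sums of 329.6 to 536 against 171 to 257 CPM). Both sums separated the groups in CPM, as Ch25h and Npc2 did. The part of these markers in the results for Ch25h, Apoe and Npc2 was not tested. Of 12 astrocyte markers 1 rose. All 12 oligodendrocyte markers had positive estimates and 1 passed, with sums of 5549 to 9396 CPM in carriers against 4488 to 6627. All 9 hippocampal neuron markers had negative estimates and 0 passed. None of these markers was at 0 in all libraries.

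The synthesis enzymes were set beside these contents in a score, the mean log2 CPM of the 18 genes centred over all libraries. It was -0.23 to -0.0014 in wild-type, -0.30 to 0.021 in Dp16, -0.016 to 0.17 in 5xFAD and 0.074 to 0.18 in 5xFAD-Dp16. The last group lay above all non-carriers, and 5xFAD overlapped them through 1 library. Each of the 4 libraries high in midbrain or thalamus genes was set against the mean log2 CPM of its genotype's libraries outside those 4. Each time, 6 synthesis enzymes were above that mean (Acat2, Pmvk, Idi1, Cyp51, Msmo1 and Sc5d) and Dhcr7 was below it. Insig1, Insig2, Apoe and Stard4 were above and Srebf2, Scap, Mylip, Abcg1 and Cyp46a1 below that mean in all 4. The difference from the mean was 0.28 to 0.58 log2 units for Idi1 and -0.54 to -0.16 for Srebf2. No share over all genes was computed for these counts.

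Without these 4 libraries the median amyloid estimate of the synthesis enzymes was 0.20, with 17 of 18 positive, and 5 of the 35 members passed: Ch25h, Apoe, Abca1, Mylip and Sqle. With oligodendrocyte and hippocampal neuron scores in the model it was 0.20, with 16 of 18 positive, and Sqle, Mylip and Abca1 passed, while Ch25h had an adjusted p of 0.0550 and Apoe of 0.117. Fdps, Fdft1 and Nsdhl passed in neither, with estimates close to those from all libraries. In the 12 libraries Fdps was at 0.25 (adjusted p = 0.0869), Fdft1 at 0.29 (adjusted p = 0.0555) and Nsdhl at 0.29 (adjusted p = 0.0515), and all 5 carriers lay above all 7 non-carriers for Fdps. With the scores in the model they were at 0.29, 0.30 and 0.30. These 3 enzymes also missed the threshold with the stricter filter and in males alone, Fdps and Fdft1 with RLE factors, Fdps and Nsdhl without a filter and Fdps with the replicate block; all 3 passed with DESeq2.

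**Figure D5:**
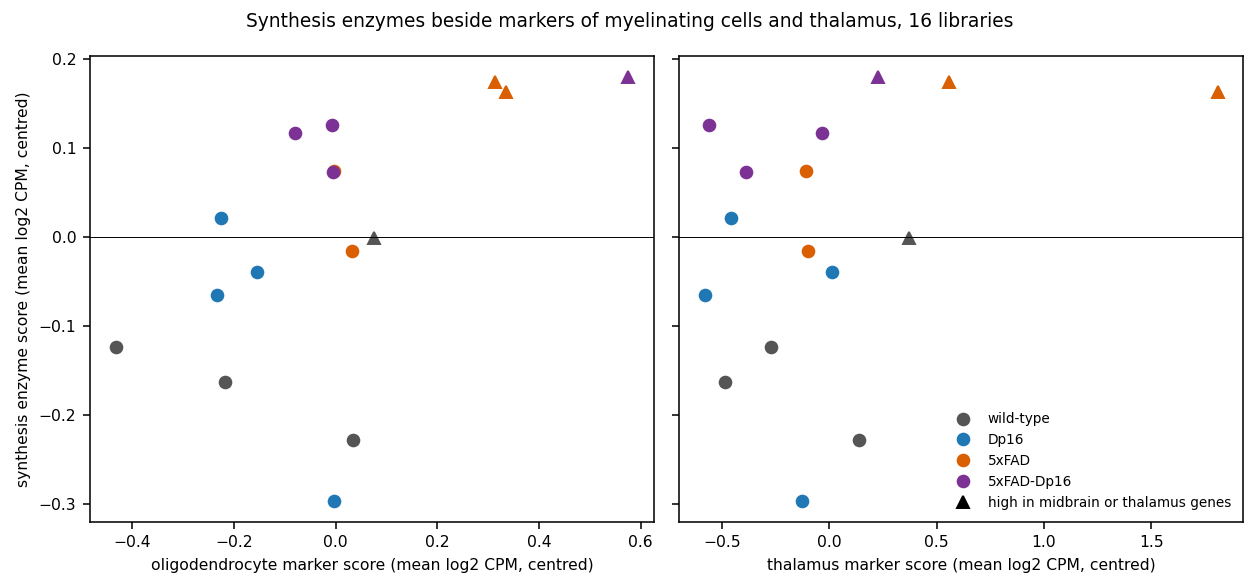
Score of the 18 synthesis enzymes (vertical, mean log2 CPM centred over libraries) against scores of oligodendrocyte markers (left) and thalamus markers (right) in the 16 libraries; triangles are the 4 libraries high in midbrain or thalamus genes. Carriers sit higher on the vertical axis, and 3 of the 4 triangles are carriers with synthesis scores of 0.16 to 0.18.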

How the data were processed

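Per the labels, RNA was extracted with TRIzol from hippocampus, selected by poly(A) tails, made into strand-specific libraries and read as paired ends. The submitters' processing notes name bcl2fastq, FastQC 0.11.5, HISAT2 2.1.0, SAMtools 1.5, HTSeq 0.6.1 and the build GRCm38. Reads of overlapping antisense genes may not have been told apart (strand setting of counting: not given in the sources used here). The authors deposited raw read counts per gene, which were used for every test, and RPKM values per gene. For 27505 of 27505 genes with enough values, the deposited RPKM was the count divided by the library total and 1 length per gene (relative tolerance 1e-06). RPKM therefore served to compare levels between genes and, where stated, to see whether groups apart in CPM stayed apart.

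Counts were analysed with edgeR 4.0.16 in R 4.3.3, with limma 3.58.1 loaded. The default low-count filter left 16684 genes. Libraries were scaled with TMM factors, and 1 robust quasi-likelihood model had a term for each genotype and 1 for sex over all 16 libraries. From it came 8 comparisons: 5 between genotypes, amyloid carriers and duplication carriers each against the rest (the mean of both backgrounds), and the interaction. Benjamini-Hochberg adjustment ran over all genes tested within each comparison, at 0.05. SE and 95% intervals came from each estimate and its F statistic. Scores used log2 CPM with a prior count of 2. Steps were tested on simulated data.

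The 35 members, their roles and the other lists were chosen with earlier results of these data known, so no list was tested as a set. Library values are given for members that passed anywhere and, in each role, for the 2 with the smallest p for amyloid and the 2 for the duplication, and of other lists for those that passed; each other list has its smallest p named, apart from 2 lists given by counts alone, where the gene is not reported here. The 3 highest and 3 lowest members by RPKM in wild-type are named. Stard4, Mvd, Nr1h2 and others named beyond this were chosen after their values were seen. Motifs were searched by script in RefSeq promoter windows. Alternatives were RLE size factors, DESeq2 1.42.0, no or a stricter filter (1 CPM in 4 libraries), no sex term, males only, a replicate block, leaving out each library, and leaving out libraries whose midbrain marker score (mean log2 CPM minus its mean over libraries) exceeded 1. Leaving out libraries above 1 in midbrain or thalamus score, and adding oligodendrocyte and hippocampal neuron scores to the model, were chosen after seeing the data.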

Additional observations from a re-analysis of the deposited data

Results flagged for a closer look

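Each of the 35 genes was checked in each genotype for a library far from the other 3, which made 140 groups of 4, and 6 were marked because the gap to the nearest library took up most of the group's range. Chance marks about 1 group in 20. 3 of them were in wild-type replicate 4, 1 of the libraries high in midbrain genes: Cyp51 was at 99.1 CPM with the nearest library at 72.4, Insig1 at 93.4 with the nearest at 64.8, and Abcg1 at 81.4 with the nearest at 99.1. Ebp was high in wild-type replicate 3, at 18.1 CPM against 16.3 in the nearest. Mvk was high in 5xFAD-Dp16 replicate 4, at 23.7 against 20.4. Nr1h2 was low in Dp16 replicate 3, at 33.2 against 41.0. With edgeR, its default filter and all libraries, none of these 6 genes passed in any of the 8 comparisons. Insig1 passed for amyloid carriers when wild-type replicate 4 was left out (adjusted p = 0.0171).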

How the results depend on the processing

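Of 240 counts and medians recomputed under alternatives that kept each library or left out groups of them, 213 stayed within the spread between replicates or, for counts, within 1.5 times; of 210 values for single genes 170 kept their direction and call, and 1 reversed. The number of members passing for amyloid carriers, 5 with all libraries, was 3 with RLE factors, 8 without a low-count filter, 2 with the stricter filter, 1 in males only, 2 when those high in midbrain genes were left out and 3 with marker scores in the model; it was 6 with DESeq2, 5 without the sex term (Apoe lost, Sqle gained) and 5 without the libraries high in midbrain or thalamus genes. Ch25h was 1 of the 2 with the stricter filter. It met that filter through the carriers, as only wild-type replicate 4 of the non-carriers reached 1 CPM. The synthesis median for amyloid carriers stayed between 0.20 and 0.23 in all these settings. Their transport and sensing median moved from 0.092 to 0.18 with marker scores. For 5xFAD-Dp16 over wild-type, 1 member became 2 with DESeq2 (Ch25h, Fdft1), without a filter (Ch25h, Stard4), without the sex term (Fdft1, Sqle) and with marker scores (Ch25h, Sqle), 5 without the 4 libraries and 0 in males only. For 5xFAD-Dp16 over Dp16, 0 became 3 with DESeq2 and 1 without a filter (Ch25h), without the 4 libraries or with marker scores (both Srebf1). For 5xFAD over wild-type, 0 became 1 without a filter (Ch25h), and the transport and sensing median fell from 0.15 to 0.022 in males only and to 0.044 without the 4 libraries. For 5xFAD-Dp16 over 5xFAD that median moved from 0.027 to 0.15 in males only and 0.16 without those with midbrain genes. For Dp16 over wild-type 0 became 1 without the 4 libraries, and for duplication carriers 0 became 1 with DESeq2, without the 3 high in midbrain genes and without the 4, Lcat each time. Soat1, at 0.025 for duplication carriers, reversed to -0.013 with marker scores, to -0.0390 without Dp16 replicate 1 and to -0.00819 without 5xFAD replicate 4, and ranged from -0.0390 to 0.0894 with 1 library left out. The cause was not tested in any of these.

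Leaving out 1 library at a time, the number of members passing was 0 to 1 for 5xFAD over wild-type, 0 to 1 for 5xFAD-Dp16 over wild-type, 0 to 1 for 5xFAD-Dp16 over Dp16 and 1 to 8 for amyloid carriers, and 0 in the other comparisons. The synthesis median ranged from 0.011 to 0.12 for Dp16 over wild-type, from 0.23 to 0.34 for 5xFAD over wild-type, from 0.22 to 0.29 for 5xFAD-Dp16 over wild-type, from 0.13 to 0.25 for 5xFAD-Dp16 over Dp16, from -0.0053 to 0.050 for 5xFAD-Dp16 over 5xFAD, from 0.19 to 0.25 for amyloid carriers, from 0.0085 to 0.074 for duplication carriers and from -0.13 to 0.00085 for the interaction. That of the transport and sensing genes ranged from -0.026 to 0.039 for Dp16 over wild-type, from 0.054 to 0.18 for 5xFAD over wild-type, from 0.085 to 0.22 for 5xFAD-Dp16 over wild-type, from 0.093 to 0.21 for 5xFAD-Dp16 over Dp16, from -0.0091 to 0.11 for 5xFAD-Dp16 over 5xFAD, from 0.083 to 0.17 for amyloid carriers, from -0.021 to 0.050 for duplication carriers and from -0.038 to 0.11 for the interaction.

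Library numbers recur across genotypes, but the labels do not say that a number marks a litter, batch or day, and same-numbered libraries did not deviate together (mean correlation of deviations 0.018 over 24 pairs, range -0.35 to 0.35). With the replicate block 4 members passed for amyloid carriers and 0 for 5xFAD-Dp16 over wild-type. Few reads limit Ch25h, and 4 libraries a genotype limit all comparisons between single genotypes.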
